A study of Homo sapiens with 10 samples.

Results

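The genes described here are 10 components of the Notch pathway, chosen by symbol from the 31017 genes of an RNA-seq count table: the ligands JAG1, JAG2, DLL1 and DLL3, the receptors NOTCH1, NOTCH2 and NOTCH3, and the target genes HES1, HES5 and HEY1. The rule used the symbols alone. Each symbol matched 1 row, and 9 of the 10 genes had their start in 1 of the 21833 promoter fragments (baits) from which at least 1 interaction was called. The start of NOTCH2 lay in none of them.

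Notch receptors and their ligands are both membrane proteins, so that a ligand on a cell activates receptors on its neighbours. Ligand binding lets the receptor be cleaved, and the released intracellular domain joins the DNA-binding protein RBPJ and switches on targets such as the HES and HEY genes, whose products are transcriptional repressors. In the neural tube this pathway is known for holding progenitors in an undifferentiated state while neighbouring ligand-expressing cells become neurons.

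The samples were human embryonic stem cells (ESCs) of the established line H9 and neuroectodermal cells (NECs) differentiated from the same line and harvested on day 7. RNA-seq and Promoter Capture Hi-C (PCHi-C) were each made on 2 biological replicates of each cell type, and ESC replicate 2 of PCHi-C combined technical replicates. All samples come from 1 line and 1 differentiation protocol, and p-values measure the spread between these libraries only. The ESC RNA libraries shared 1 sequencing lane and the NEC RNA libraries a different one, which means that lane and cell type cannot be told apart.

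The RNA libraries held 19234087 to 25356382 counts. All 8 markers of pluripotency fell in NECs and 7 of 8 neuroectoderm markers rose, the last (SIX6) having too few counts to be tested. The libraries of a cell type were not alike in every list. Summed pluripotency markers stood at 329 CPM (library-scaled read counts) in NEC replicate 1 and 637 in NEC replicate 2, against 4470 and 4780 in the ESC replicates. Of the 8 neural crest markers 5 rose, and the sum of all 8 stood at 220 and 120 CPM in NEC replicates 1 and 2. TFAP2B, a defining gene of the border and crest, was at 15.9 and 1.46 CPM there. SOX10, FOXD3, TFAP2A, PAX3 and TWIST1 were also lower in NEC replicate 2 than in NEC replicate 1. SNAI2 differed less, at 24.5 and 19.6 CPM, and NGFR was about equal, at 78.3 and 78.9 CPM. FOXD3 was lower in both NEC libraries than in both ESC libraries, but did not pass the test. Of the 8 genes for neurons and neurogenic progenitors, 5 rose, 1 (TUBB3) did not pass the test and 2 were too low to test, with NEUROD1 at 0.561 and 0.081 CPM and NEUROG2 at 0.327 and 0.0405 CPM in NEC replicates 1 and 2. Among endothelial markers, CDH5 stood at 1.08 and 2.19 CPM in NECs, and the summed list at 60.7 and 96.5 CPM there against 218 and 281 CPM in ESCs, nearly all from KDR and TEK. Of the 8 mesendoderm markers 7 fell, and their sum was at 39.0 and 107 CPM in ESC replicates 1 and 2, and at 7.39 and 5.46 CPM in those of NECs. The part of these cell populations in the Notch gene values was not tested, and in bulk RNA a change in the share of cells that express a gene and a change in the RNA per cell cannot be told apart.

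Expression was compared between cell types to see which components of the pathway differed after neural commitment. The ligands JAG1, DLL1 and DLL3 and the targets HES5 and HEY1 rose in NECs, by 1.61 log2 units or more, and DLL1 and HES5 went from near or at 0 to levels per kb of exon within the range of the receptors. No gene among the 10 fell by the criteria used, a size above 1.5 on the log2 scale together with an adjusted p below 0.05 from edgeR's quasi-likelihood test. At an unadjusted p under 0.05, 1 gene (JAG2) was lower in NECs, and DESeq2 also called 0 that fell. The 5 of 10 genes that rose compare with 11.4% of the 17564 genes tested that rose, and the 0 that fell with 9.68% that fell. By the adjusted p alone, 8 of the 10 were higher in NECs and 1 was lower, against 31.5% and 29.7% of all genes tested. The median log2 fold change (NECs minus ESCs) of the 10 genes was 1.31, and that of all genes tested was 0.014.

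**Figure D1:**
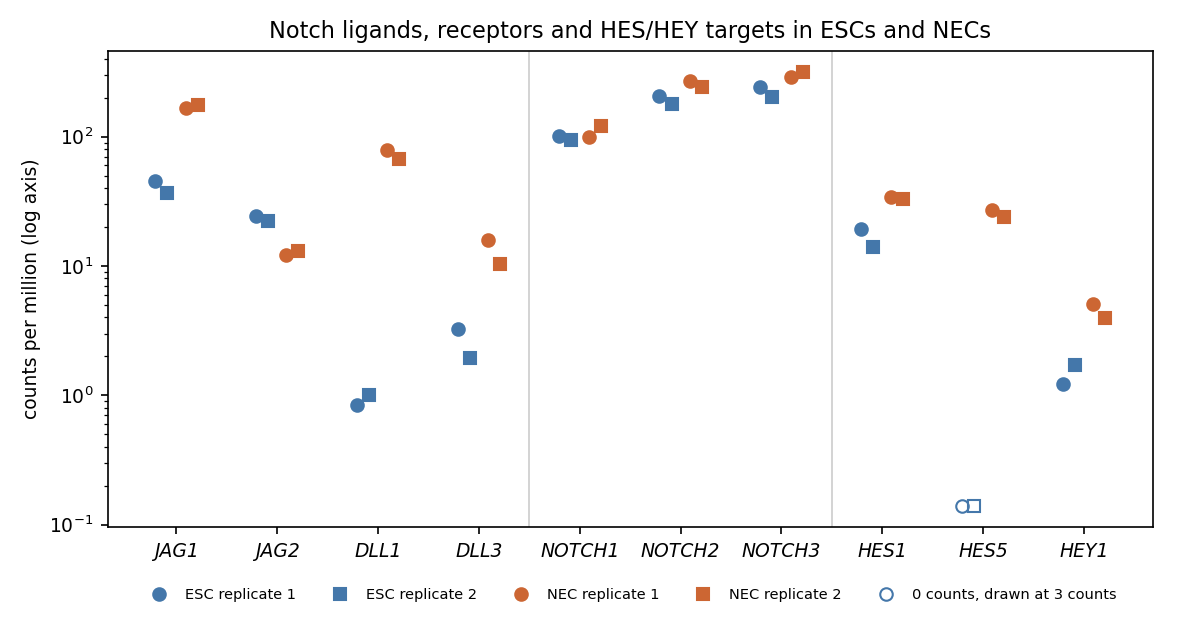
Library-scaled counts in CPM (log axis) of the 10 Notch genes in each of the 4 RNA libraries, with circles for replicate 1 and squares for replicate 2, and grey lines between ligands, receptors and targets. DLL1 was at 0.847 and 1.01 CPM in ESCs and 78.7 and 66.9 CPM in NECs, and HES5 had 0 counts in both ESC libraries (open symbols, drawn at the level of 3 counts).

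Among the ligands, JAG1 was the most abundant in ESCs and remained well above JAG2 in NECs. JAG1 encodes a Jagged ligand with a role in neural, vascular and liver development. It stood at 45.8 and 36.5 CPM in the ESC libraries and at 167 and 176 CPM in the NEC libraries. Both NEC values were above both ESC values, and the log2 fold change was 2.06 ± 0.13 (SE, n = 2 libraries per cell type; adjusted p by edgeR = 6.8e-05). JAG2, the other Jagged ligand, went the opposite way, from 24.2 and 22.3 CPM in ESCs to 12.1 and 13.1 CPM in NECs. The ESC and NEC libraries did not overlap, and the log2 fold change of -0.89 ± 0.13 (SE; adjusted p by edgeR = 0.00151) passed the adjusted p but not the fold threshold. Per kb of exon, JAG1 made up 56.5% and 53.0% of the summed level of both Jagged genes for ESC replicates 1 and 2, and 90.5% and 90.2% for NEC replicates 1 and 2.

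DLL1, a Delta-like ligand that activates receptors on neighbouring cells, had the larger change of the Delta-like genes. Its counts were 16 and 25 in the ESC libraries and 1682 and 1652 in the NEC libraries. In CPM this was 0.847 and 1.01 against 78.7 and 66.9, with no overlap, and a log2 fold change equal to 6.27 ± 0.17 (SE; adjusted p by edgeR = 9.6e-06). Of the 17564 genes tested, 145 had a larger log2 fold change and 14 a smaller adjusted p. DLL3, a divergent family member that is known to act inside the cell and to dampen Notch signalling there, had 62 and 48 counts in ESCs and 341 and 256 in NECs. In CPM its ESC libraries stood at 3.28 and 1.94 and its NEC libraries at 15.9 and 10.4. The groups did not overlap, although each differed between its own replicates, and the log2 fold change was 2.35 ± 0.33 (SE; adjusted p by edgeR = 0.00132).

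The makeup of the ligands thus differed between the cell types. Summed per kb of exon, the 4 ligands stood at 10.2 and 8.42 CPM per kb in ESC replicates 1 and 2 and at 46.6 and 42.4 CPM per kb in NEC replicates 1 and 2. DLL1 made up 2.18% and 3.15% of that sum in ESCs but 44.2% and 41.3% in NECs. JAG1 made up 48.4% and 46.7% in ESCs and 38.6% and 44.6% in NECs. These shares depend on the length used. Per kb of the longest transcript, JAG1 stood at 28.9 CPM per kb and DLL1 at 19.3 in NECs (means, n = 2), against 18.4 and 19.1 per kb of exon. In ESCs JAG1 stood at 6.93 and DLL1 at 0.246 per kb of the longest transcript.

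The receptors differed much less than the ligands. NOTCH1, the receptor best known from neural progenitors and from T cell development, stood at 101 and 95.0 CPM in ESCs and at 99.2 and 121 CPM in NECs. Its groups overlapped and its log2 fold change of 0.17 ± 0.12 (SE) did not pass the test (adjusted p by edgeR = 0.252). NOTCH2, a paralogue expressed in many tissues, stood at 207 and 180 CPM in ESCs and 271 and 244 CPM in NECs, and NOTCH3, known for its role in vascular smooth muscle, at 244 and 201 CPM in ESCs and 289 and 314 CPM in NECs. For both, each NEC library was above each ESC library by a small margin. The log2 fold changes were 0.41 ± 0.11 (SE; adjusted p by edgeR = 0.016) for NOTCH2 and 0.44 ± 0.12 (SE; adjusted p by edgeR = 0.0179) for NOTCH3, under the fold threshold. Neither passed the adjusted p when ESC replicate 2 was left out (0.163 for NOTCH2 and 0.175 for NOTCH3 in edgeR's test), whereas NOTCH1 passed it without NEC replicate 1 (log2 fold change 0.31, adjusted p = 0.0332). NOTCH2 shares sequence with the partial copy NOTCH2NL, counted at 13.1 ± 2.33 CPM in ESCs and 19.7 ± 4.64 CPM in NECs (mean ± SD, n = 2), so that its value is uncertain by the reads that both genes may exchange.

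Of the targets, HES5 had the largest change. HES5 encodes a repressor of proneural genes in neural progenitors, and it had 0 counts in both ESC libraries and 584 and 593 counts in the NEC libraries. With the ESC level set at 3 counts per library (0.14 CPM), the NEC level of 25.7 ± 2.33 CPM (mean ± SD, n = 2) was at least 183-fold higher (adjusted p by edgeR = 3.0e-05). HES1, a repressor of the same family that is expressed in many progenitors, was already present in ESCs, at 19.4 and 14.1 CPM, and stood at 34.4 and 33.0 CPM in NECs. Its groups did not overlap, and its log2 fold change equal to 1.01 ± 0.17 (SE; adjusted p by edgeR = 0.00239) was under the fold threshold. HEY1, a repressor related to the HES proteins, was the lowest of the targets in NECs, with 23 and 42 counts in ESCs and 108 and 98 in NECs. This was 1.22 and 1.70 CPM against 5.05 and 3.97 CPM, a log2 fold change equal to 1.61 ± 0.30 (SE; adjusted p by edgeR = 0.00377). HEY1 lay close to the fold threshold, and its log2 fold change was 1.38 without ESC replicate 1 and 1.43 without NEC replicate 1.

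Promoter sequences were read because the HES genes are classical targets of RBPJ. RefSeq promoters (250 bases before to 50 after the start, GRCh38.p14) were found for 7 of the 10 genes, and DLL1, DLL3 and HEY1 were not matched. The letters GTGGGAA, the core sequence recognised by RBPJ, were searched on both strands of each promoter. HES1 held 1 match and HES5 held 2, and there were 0 in JAG1, JAG2, NOTCH1, NOTCH2 and NOTCH3. Of 35116 RefSeq promoters of the same length, 6.25% held them. The HES1 match lay 85 to 79 bases before the RefSeq start, and the HES5 matches lay 224 to 218 and 81 to 75 bases before it, the farther one on the opposite strand. Bases before the start of both genes are shown with the matched letters in capitals. The HES1 stretch runs from 150 to 4 bases before its RefSeq start, ending where the gene begins in the count table, and the HES5 stretch from 250 to 1. They are HES1 from chr3:193853787-193853933 (GRCh37, plus strand) and HES5 from chr1:2461703-2461952 (GRCh37, minus strand).
HES1: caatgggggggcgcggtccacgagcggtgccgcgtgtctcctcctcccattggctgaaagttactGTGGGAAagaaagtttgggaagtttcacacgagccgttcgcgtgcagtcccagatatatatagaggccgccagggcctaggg
HES5: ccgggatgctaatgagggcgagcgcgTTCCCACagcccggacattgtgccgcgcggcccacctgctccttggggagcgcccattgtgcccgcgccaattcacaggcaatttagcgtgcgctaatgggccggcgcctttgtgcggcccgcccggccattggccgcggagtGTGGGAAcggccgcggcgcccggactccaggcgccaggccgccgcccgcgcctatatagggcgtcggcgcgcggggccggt

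Sites that HES and HEY proteins are known to bind were searched in the same way. The E-box CACGTG occurred in none of the 7 promoters, against 7.26% of all. The class C site CACGCG occurred in JAG1, JAG2 and HES1, against 11.4% of all, and the N-box CACNAG in NOTCH1, NOTCH2, NOTCH3 and HES1, against 38% of all. HES1 held 4 N-boxes and 2 class C sites, whereas HES5 held neither. The GC content of the 7 promoters ran from 59.0% in HES1 to 79.7% in JAG2, with a median of 58.7% over all promoters. These matches describe the letters in the windows, and no binding was measured.

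Levels were compared between genes per kb of exon, where the receptors led in ESCs. NOTCH3 stood at 23.6 ± 3.18 CPM per kb of exon (mean ± SD, n = 2), followed by NOTCH2 at 11.6 ± 1.13, HES1 at 8.13 ± 1.85 and NOTCH1 at 7.84 ± 0.368. The libraries of HES1 and NOTCH1 overlapped, so that their order was not resolved. JAG1 (4.43 ± 0.707), JAG2 (3.63 ± 0.219) and DLL3 (0.996 ± 0.36) came next, and HEY1 (0.266 ± 0.0615) and DLL1 (0.243 ± 0.0304), whose libraries overlapped, came before HES5 at 0.

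In NECs NOTCH3 still led, at 32.1 ± 1.84 CPM per kb of exon (mean ± SD, n = 2), and the genes behind it had changed places. HES5 (19.4 ± 1.77), DLL1 (19.1 ± 2.19) and JAG1 (18.4 ± 0.636) formed a group in which neighbours overlapped, and HES1 (16.4 ± 0.495) and NOTCH2 (15.4 ± 1.13) overlapped below them. NOTCH1 (7.92 and 9.69 in the 2 libraries), DLL3 (5.03 ± 1.51), JAG2 (1.97 ± 0.113) and HEY1 (0.822 ± 0.139) followed in that order without overlap. Summed per kb, the 3 receptors stood at 43.1 CPM per kb in ESCs and 56.3 in NECs, a ratio of 1.31, and the 4 ligands at 9.31 and 44.5, a ratio of 4.78. The order in NECs depended on the length used: with the longest transcript in place of all exons, JAG1 and NOTCH2 ranked above HES1, HES5 and DLL1.

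**Figure D2:**
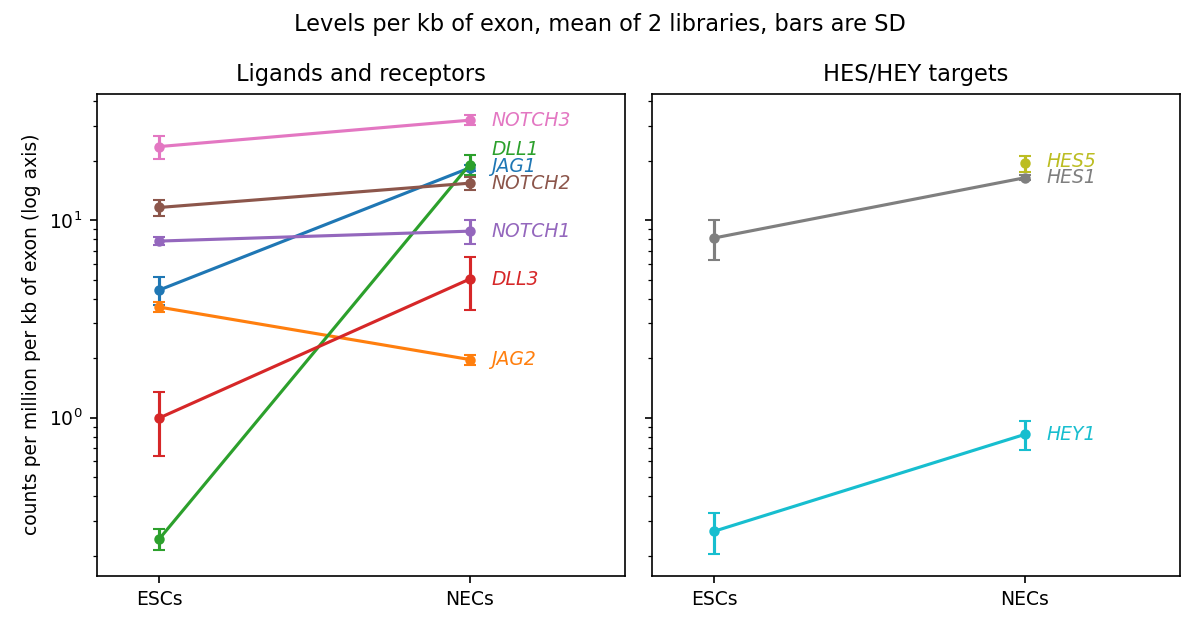
Level of each gene in CPM per kb of exon (log axis), as the mean of 2 libraries with SD, in ESCs and NECs. Lines join a gene's levels, HES5 has no ESC point because it had 0 counts there, DLL1 climbed from 0.243 to 19.1 and JAG2 went from 3.63 to 1.97.

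The other genes of the pathway were taken as a list of 65 symbols by role, of which 64 were in the count table and 61 were tested. In this list 14 of the 61 genes rose, against 11.4% of all genes tested, 1 fell, against 9.68% of all, and 46 did not pass both criteria. The median log2 fold change was 0.25, against 0.014 over all genes tested. By role, 2 of 3 other ligands, 2 of 6 genes of ligand ubiquitination, 2 of 5 glycosylation genes, 3 of 10 inhibitors and turnover genes, and 3 of 5 other HES and HEY factors rose. Of the nuclear complex and its coactivators 1 of 9 genes rose, and of the corepressors 1 of 12, shares near that of all genes. Of the 9 genes for receptor cleavage 0 changed in edgeR's or DESeq2's test, although 5 of them differed at an unadjusted p under 0.05 in edgeR's. These groups are small, and differences between roles were not tested. By the adjusted p alone, 28 of the 61 genes were higher (45.9%) and 9 lower (14.8%) in NECs, against 31.5% and 29.7% of all genes tested.

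Among other ligands, DLK1 and DNER rose, DLK2 did not pass the test and DLL4 was too low to be tested, at 0.0467 ± 0.00885 CPM in ESCs and 0.51 ± 0.205 CPM in NECs (mean ± SD, n = 2). Both calls depended on the setting. DLL4 was called higher in NECs with no filter on low counts (adjusted p by edgeR = 0.00412) and when ESC replicate 1 or NEC replicate 2 was left out (0.0479 and 0.00868), and DLK2 without NEC replicate 1 (log2 fold change 1.51, adjusted p by edgeR = 0.0219). DLK1, a ligand-like protein that lacks the domain of the activating ligands, went from 1.06 and 0.97 CPM in ESCs to 640 and 337 CPM in NECs, a log2 fold change equal to 8.91 ± 0.43 (SE; adjusted p by edgeR = 3.2e-05). Its NEC replicates lay far apart from each other and far above both ESC replicates. DNER, a neuronal atypical ligand, rose by 2.1 ± 0.33 log2 units (SE; adjusted p by edgeR = 0.00214).

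Genes that modify ligands and receptors rose in several places. NEURL, a ubiquitin ligase that promotes ligand endocytosis, rose by 2.91 ± 0.28 log2 units (SE; adjusted p by edgeR = 0.00029), whereas MIB1, the ligase with the same task in most vertebrate cells, stood at 122 ± 0.647 CPM in ESCs and 129 ± 13.5 CPM in NECs. Of the glycosylation genes, LFNG and MFNG, Fringe enzymes that lengthen sugars on the receptor and shift its response between Delta-like and Jagged ligands, rose by 3.31 ± 0.18 and 2.6 ± 0.3 log2 units. LFNG went from 11.8 and 11.0 CPM in the ESC libraries to 132 and 94.5 CPM in the NEC libraries. The third Fringe gene, RFNG, stood at 21.9 ± 1.45 and 31.6 ± 3.66 CPM and was under the fold threshold. DTX4 and DTX1, Deltex ubiquitin ligases that bind the receptor inside the cell, rose by 3.22 ± 0.11 and 2.72 ± 0.19 log2 units. Also up among the ubiquitination genes and the inhibitors and turnover genes were NEURL1B, a relative of NEURL, and NRARP. NRARP is an inhibitor of the nuclear complex and itself a Notch target. NRARP lay close to the fold threshold, at 1.63 ± 0.12 log2 units (SE; adjusted p by edgeR = 0.000134) with all libraries and 1.49 without ESC replicate 2, where the call was lost.

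In the nucleus, TLE4, a Groucho corepressor that HES proteins recruit, rose from 27.8 and 25.4 CPM to 206 and 204 CPM, a log2 fold change equal to 2.95 ± 0.1 (SE; adjusted p by edgeR = 1.3e-05). KAT2B, a histone acetyltransferase, was the coactivator gene that rose. RBPJ, singled out here after its values were seen because the pathway acts through it, was lower in NECs, at 257 and 217 CPM in ESCs and 111 and 112 CPM in NECs, with a log2 fold change equal to -1.09 ± 0.11 (SE; adjusted p by edgeR = 0.00034) that was under the fold threshold. The other HES and HEY factors moved in both directions. HES4, HES3 and HEYL rose by 5.49 ± 0.35, 3.95 ± 0.15 and 2.8 ± 0.33 log2 units (SE), and HEY2 was the gene that fell, from 9.64 and 6.95 CPM to 2.24 and 1.34 CPM, with a log2 fold change equal to -2.21 ± 0.32 (SE; adjusted p by edgeR = 0.00153). HEY1 and HEY2, which are close relatives, thus had fold changes of opposite sign, and the difference between them was not tested.

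**Figure D3:**
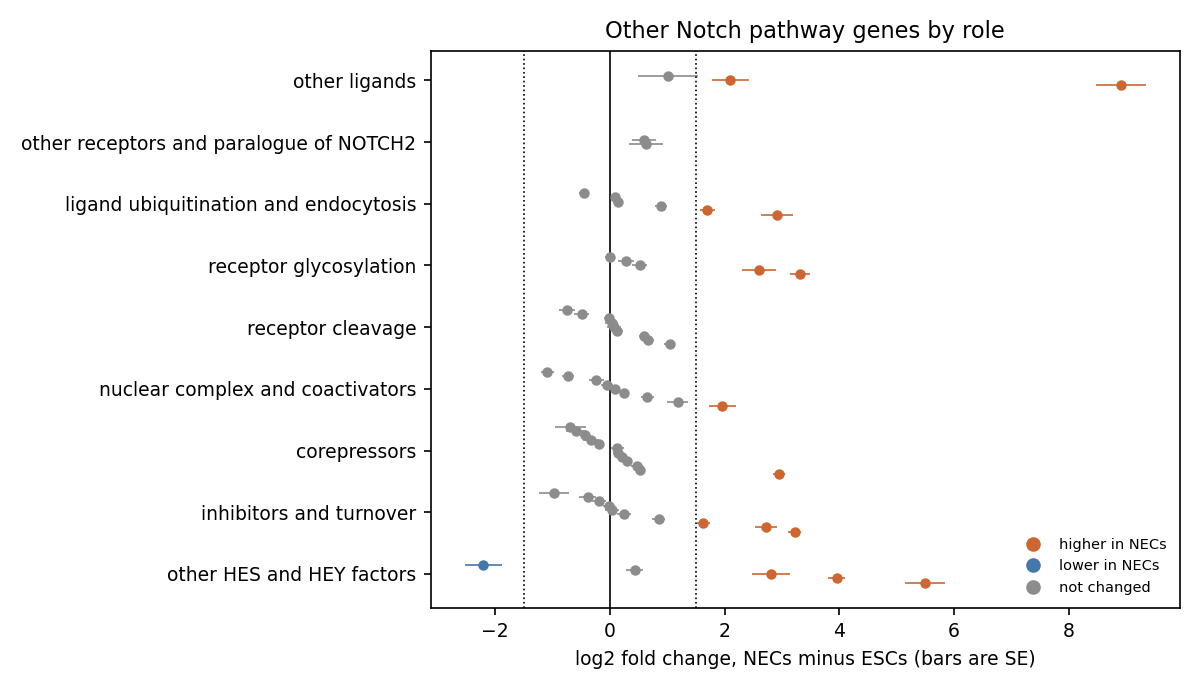
Log2 fold change (NECs minus ESCs, bars are SE) of the 61 tested genes of the pathway list by role, 1 point per gene, with dotted lines at the threshold of 1.5. The 14 genes that rose lie to the right, DLK1 farthest at 8.91, HEY2 lies alone on the left at -2.21, and the 9 receptor cleavage genes lie between the dotted lines.

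Promoter interactions of the same genes were then compared. In PCHi-C, ligation products that hold a promoter fragment are captured, and a CHiCAGO score tells how far a pair of HindIII fragments exceeds a background that depends on distance and fragment. A promoter-interacting region (PIR) is the HindIII fragment that a bait was called with, at a score of 12 or more. Calls were listed per replicate and also after both replicates of a cell type had been combined (merged calls). Read numbers behind single scores were not used here, so that the depth of a call is unknown, and a fragment not listed may have scored just below 12.

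The Notch baits had more PIRs in NECs. Summed over the 9 baits, ESC replicates 1 and 2 had 45 and 58 PIRs and NEC replicates 1 and 2 had 112 and 107, while the whole lists ran from 81168 to 100305 calls per replicate. Merged calls held 68 and 157 PIRs for ESCs and NECs, of which 49 were the same fragments, 72.1% of those in ESCs and 31.2% of those in NECs. The median of the 9 baits went from 7 PIRs (ESCs) to 13 (NECs), and the median over all baits with a PIR was 3 in each cell type. At 6 of the 9 baits (JAG1, JAG2, DLL1, HES1, HES5 and HEY1) both NEC replicates had more PIRs than both ESC replicates, and at none was it the other way round. Over all 21768 baits with a replicate call, 13.2% were higher in both NEC replicates and 12.9% higher in both ESC replicates. With a score of at least 15, the bait count fell to 3 of 9, JAG1, DLL1 and HES1. With 2 replicates against 2, no permutation test can go below p = 0.333, and none was made.

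**Figure D4:**
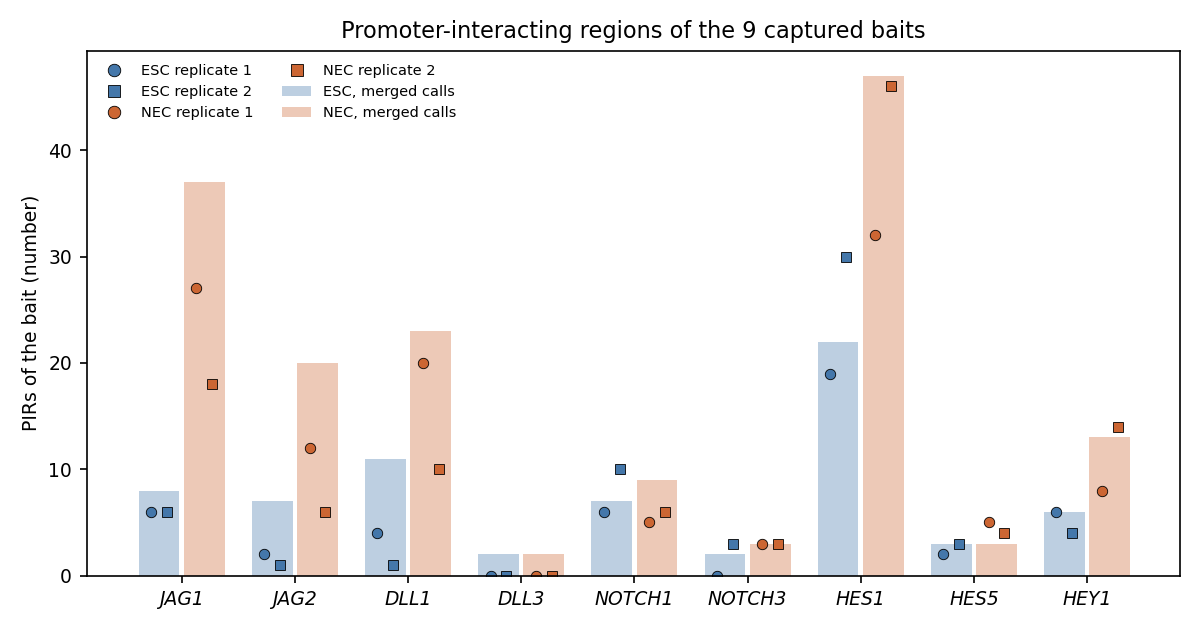
Number of PIRs of each of the 9 baits, as bars for the merged calls and symbols for each replicate, with ESCs in blue and NECs in orange. JAG1 had 6 PIRs in each ESC replicate against 27 and 18 for NECs, DLL3 had no PIR in any replicate, and at NOTCH1 the replicates overlapped.

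An interaction counted as gained when both NEC replicates and no ESC list held it and its merged score fell in the top 1 of 5 equal groups, and as lost in the converse case. By this rule 9 interactions were gained in NECs at the Notch baits, 7 at JAG1 and 2 at HES1, and 0 were lost. Of all baits, 3.03% had a gained interaction and 3% a lost one. Without the limit on the score, 24 were gained, at JAG1 (10), HES1 (6), DLL1 (3), JAG2 (2), HEY1 (2) and NOTCH3 (1), and still 0 were lost. The share of all baits under this looser rule is not given, and the 3.03% and 3% do not apply to it. Interactions called in all 4 replicates were found at JAG1 (3), HES1 (5), NOTCH1 (1) and HEY1 (1), 4 of 9 baits, against 18.3% of all baits.

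The JAG1 bait (chr20:10652126-10657723, GRCh37) had the largest change in PIR number among the Notch baits, from 8 merged PIRs in ESCs to 37 in NECs, and 14 of all baits had a larger difference in that direction. Of the 37 PIRs, 36 lay upstream of the gene at more than 500 kb, and none of the 37 held a bait. The remaining PIR lay 206.6 kb downstream, in an intron of SLX4IP, with a merged NEC score of 13.18, and the other 36 lay outside protein-coding genes. A run of 26 PIRs with gaps of at most 10 kb covered chr20:11155827-11261334, which is 502.9 to 604.6 kb from the bait by fragment centres. In ESCs the merged calls held 3 PIRs within that stretch. A farther run of 4 PIRs, at chr20:11520950-11535805, lay 867.7 to 879.4 kb from the bait.

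The strongest JAG1 contact in NECs was the fragment chr20:11252332-11254418, with a merged score of 38.74 in NECs and 16.08 in ESCs. It was called in every replicate, at 13.7 and 13.3 in ESCs and 29.2 and 18.1 in NECs, so that no ESC score reached a NEC score. Another retained fragment, chr20:11520950-11524247, lay in the farther run, was the highest in ESCs at 16.43, and scored 30.01 in NECs.

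Gained contacts lay in the same runs as the retained ones. The fragment chr20:11524248-11529641, next to the retained one in the farther run, scored 22.1 and 26.8 in the NEC replicates and 34.15 in the merged NEC calls. In the nearer run, chr20:11228797-11230420 scored 21.8 and 21.4 in the NEC replicates and 32.56 merged. None of these were listed in any ESC replicate or in the merged ESC calls. When fragments within 10 kb of an ESC call were counted as the same contact, 4 of the 7 gained JAG1 interactions remained. All 6 JAG1 PIRs shared between the merged lists scored higher in NECs, with a median of 27.2 against 13.65. The bait of MKKS and C20orf94 also called 5 of these 10 retained or gained fragments in merged NECs and none of them in merged ESCs.

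**Figure D5:**
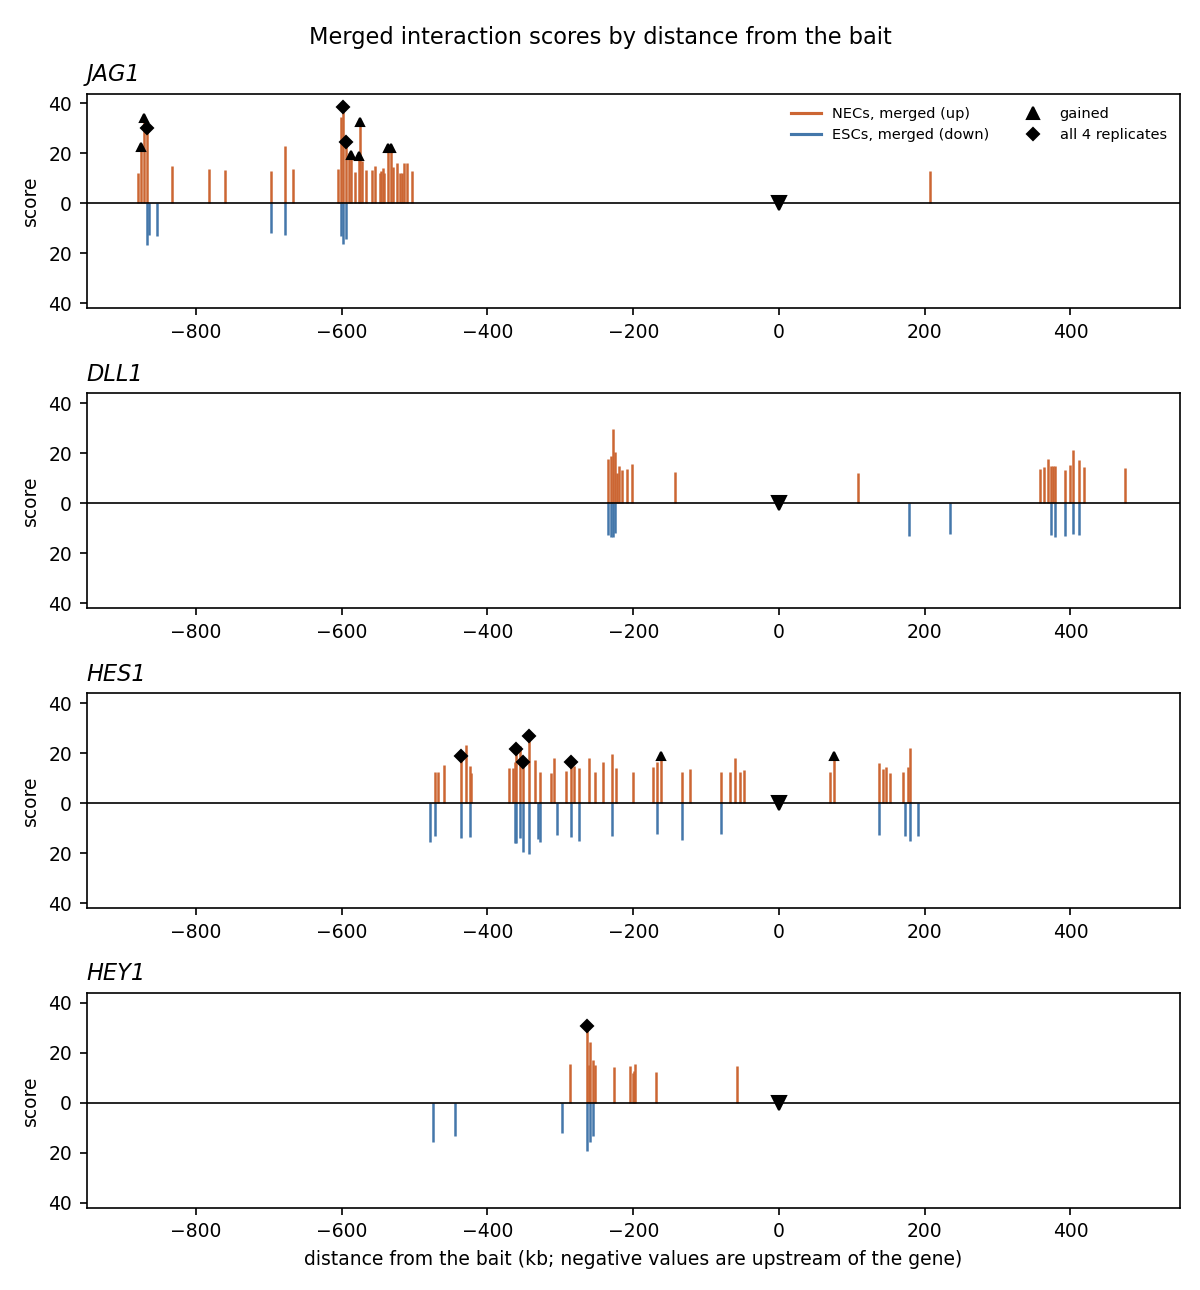
Merged scores of the PIRs of the JAG1, DLL1, HES1 and HEY1 baits against the distance from the bait in kb, with NECs drawn upwards, ESCs downwards, triangles for gained interactions and diamonds for those called in all 4 replicates. JAG1 has a dense NEC run between 502.9 and 604.6 kb upstream, DLL1 a run on each side, HES1 contacts spread over both sides, and HEY1 contacts on the upstream side.

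In NECs the other ligand baits had fewer merged PIRs than JAG1 and lower highest scores, whereas in ESCs DLL1 had more (11 against 8). DLL1 (bait chr6:170596253-170603648) had 4 and 1 PIRs in ESC replicates 1 and 2 but 20 and 10 in NEC replicates 1 and 2. Its merged PIRs lay in a downstream run of 11 in NECs (chr6:170178675-170243318, 358.7 to 419.0 kb away) and an upstream run of 9 (chr6:170798275-170836992, 201.0 to 234.8 kb away), and both stretches were also contacted in merged ESC calls, by 5 and 4 PIRs. The strongest, chr6:170826227-170829351, scored 13.33 in merged ESCs and 29.52 in merged NECs, and was called in both NEC replicates (20.4 and 17.1) and in neither ESC replicate. It was not counted as gained because of its merged ESC call. The highest DLL1 score in merged ESCs was 13.63, at chr6:170219249-170222583. All 9 shared DLL1 PIRs scored higher in NECs, with medians of 12.88 and 17.55. The DLL1 bait also holds the start of FAM120B, which was higher in NECs by 0.62 ± 0.09 log2 units (SE; adjusted p by edgeR = 0.00158), so that a contact cannot be assigned to either gene.

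JAG2 (bait chr14:105630619-105648563) had 2 and 1 PIRs in ESC replicates 1 and 2 but 12 and 6 in NEC replicates 1 and 2, although its RNA was lower in NECs. Merged calls held 7 in ESCs and 20 in NECs, of which 4 and 8 were called in neither replicate. At a score of at least 15 the JAG2 replicates of the cell types overlapped. Its merged NEC calls included a run of 11 PIRs upstream at chr14:105717339-105822721, over BTBD6, BRF1 and PACS2. Its highest merged scores were 15.49 in ESCs, at chr14:105821420-105822721, and 17.16 in NECs, at chr14:105717339-105725208. Shared fragments did not score higher in NECs, with 2 of 5 higher and medians of 13.33 in ESCs and 13.28 in NECs. The bait also holds the starts of NUDT14, which was higher in NECs by 0.58 ± 0.15 log2 units (SE; adjusted p by edgeR = 0.0147), and of 2 other transcripts. DLL3 had 2 merged PIRs in each cell type, the baits of EID2B and EID2, which were the same fragments, and neither was called in a single replicate.

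Most PIRs of the NOTCH1 bait were other promoters. NOTCH1 (bait chr9:139439530-139442559, which also holds the start of RP11-611D20.2) had 6 and 10 PIRs in ESC replicates 1 and 2, which overlapped the 5 and 6 of the NEC replicates. Of its merged PIRs, 7 of 7 in ESCs and 8 of 9 in NECs were baits. No direction was resolved, since the merged number was higher in NECs while the replicates overlapped. Its strongest contact, the bait of INPP5E at chr9:139330579-139334640, scored 34.68 in ESCs and 29.87 in NECs. The bait of AGPAT2 at chr9:139571983-139593209 was called in all 4 replicates. Of its 5 shared PIRs, 1 scored higher in NECs. NOTCH3 had 2 merged ESC PIRs and 3 merged NEC PIRs with no fragment in common. Here the bait of EPHX3 (chr19:15335031-15345796) was its highest NEC contact, with a merged score of 17.87, and was called in both NEC replicates and in no ESC list. Its highest ESC contact, chr19:15226635-15230231 in ILVBL, scored 12.72.

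Among the targets, HES1 (bait chr3:193850191-193857559) had the most PIRs in either cell type. ESC replicates 1 and 2 had 19 and 30, NEC replicates 1 and 2 had 32 and 46, and the merged calls held 22 and 47. They were spread over a span of 678.6 kb in ESCs and 654.6 kb in NECs, and of the 47 in NECs 38 lay upstream and 44 outside protein-coding genes. The strongest contact, chr3:193502830-193518993, lay 343 kb upstream, scored 20.22 in ESCs and 26.83 in NECs, and was called in all 4 replicates. Of the 17 shared PIRs, 12 scored higher in NECs and 5 in ESCs. The gained contacts were chr3:193689518-193695547, 161.3 kb upstream with a merged score of 19.0, and chr3:193926649-193931258, 75.1 kb downstream with a merged score of 18.7. The bait of RP11-135A1.2 also called both of these in merged NECs. In merged ESCs the upstream fragment was called by the baits of RP11-135A1.2 and CPN2, and the downstream one by no bait.

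HES5 and HEY1 differed in the kind of fragment they contacted. HES5 lies in a bait of 37464 bp (chr1:2458433-2495896) that also holds the starts of TNFRSF14 and RP3-395M20.8, so that a contact cannot be assigned to any of them. All merged PIRs of the HES5 bait were baits, 3 in each cell type with 2 in common. The bait of PEX10 (chr1:2335725-2351765) was its highest in NECs at 17.49, and the bait of RP4-740C4.4 (chr1:2354920-2357804) its highest in ESCs at 16.01. ESC replicates 1 and 2 had 2 and 3 PIRs against 5 and 4 for NECs, a difference of few calls for a gene whose RNA went from 0 to 25.7 CPM. HEY1 (bait chr8:80675273-80681488) had 6 and 4 PIRs in ESC replicates 1 and 2 but 8 and 14 in NEC replicates 1 and 2, and all 13 merged PIRs in NECs lay upstream, 12 of them over protein-coding genes. Its strongest contact, the bait of MRPS28 at chr8:80939653-80943497, was called in all 4 replicates, at 15.5 and 14.6 in ESCs and 17.2 and 24.6 in NECs, and its 3 shared PIRs all scored higher in NECs.

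Over the 9 baits, 36 of the 49 shared PIRs (73.5%) had the higher merged score in NECs, against 52.6% of the 43903 pairs shared over all baits. Most of the 36 came from HES1 (12), DLL1 (9) and JAG1 (6), where many are neighbouring fragments and not independent contacts. The shared PIRs of DLL3 (2) and HEY1 (3) were all higher in NECs. NOTCH1 (1 of 5) and JAG2 (2 of 5) went mostly the other way, and HES5 had 1 in each direction. None of the calls of the Notch baits joined different chromosomes, a kind of call that was also rare in the paper. No fragment among their 240 PIRs was contacted by more than 1 of them. This follows from where the baits lie: only those of DLL3 (chr19:39986725-39990679) and NOTCH3 (chr19:15307614-15312187) share a chromosome, and they lie far apart. Expression and PIR numbers were set side by side without a test across the 9 genes. JAG1, DLL1, HES5 and HEY1, whose RNA rose, had more PIRs in both NEC replicates, although merged HES5 calls numbered 3 in each cell type. So did HES1, under the fold threshold, and JAG2, whose RNA was lower. DLL3, whose RNA rose, had none in any replicate. At NOTCH1 and NOTCH3, whose RNA did not pass both criteria, the PIR numbers of the replicates overlapped.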

How the data were processed

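RNA-seq and PCHi-C of H9 ESCs and day 7 NECs were analysed, with 2 biological replicates per cell type and assay. Conventional Hi-C was not analysed here. The authors trimmed the RNA reads, aligned them to GRCh37 (TopHat2 2.0.8b and Bowtie 1.0.0 in the submitters' processing notes) and deposited raw counts per Ensembl gene, made without regard to strand, so that overlapping genes (AL035456.1 at JAG1, RP11-44N21.4 at JAG2, RP11-413M3.4 at NOTCH1, AC020911.1 at NOTCH3) may share reads. The authors deposited a CHiCAGO score per fragment pair, which is the negative log of a distance-weighted p-value, for each replicate and for merged replicates, at 12 or above. No per-sample column was left unmatched (0).

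Counts were tested with edgeR 4.0.16 (R 4.3.3): filterByExpr with a minimum count of 10, TMM scaling, the quasi-likelihood test and Benjamini-Hochberg adjustment over 17564 genes. Log2 fold changes used a prior count of 0.125, and their SE was derived from the F statistic. The study's thresholds were used. For the bound on a fold (HES5), a gene at 3 counts or fewer in both libraries of a cell type was set to that floor. Levels and log2 fold changes were not floored. CPM per kb used the union of exons, and means ± SD are over 2 libraries. The expression test was tried on simulated counts. PIRs were taken from the bait side of each call with Python 3.11.15 (numpy 2.4.6, pandas 2.3.3, matplotlib 3.10.9), shared PIRs were identical fragments, and distances ran between fragment centres. Protein-coding genes came from a GRCh37 annotation, and promoters from RefSeq (GRCh38.p14), placed in GRCh37 by exact match.

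The 10 genes and all lists were chosen with earlier results of these data known. All 10 were named. Of the pathway list, the 12 changed genes with the largest absolute log2 fold change were named with values, and of the PIRs the highest merged score per bait and cell type and the rewired and retained ones (at most 4 per bait). RBPJ, MIB1, RFNG, DLL4 and the genes sharing baits were named after their values were seen.

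Alternatives were DESeq2 1.42.0 (unshrunken and shrunken), its size factors, library size alone, other filters, the adjusted p alone, a replicate block and leaving out each library. For PIRs they were a score of 15, a tolerance of 10 kb, calls from the other end, other transcript starts, no score limit for gained or lost contacts, and each replicate alone. For levels they were the longest transcript and each replicate alone.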

Additional observations from a re-analysis of the deposited data

How the results depend on the processing

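No log2 fold change of the 10 genes changed sign. The merged NOTCH1 PIR numbers, 7 in ESCs and 9 in NECs, turned round to 5 and 4 at a score of 15, 6 and 5 with replicate 1 alone and 10 and 6 with replicate 2 alone. Members that rose numbered 4 to 5 across the other fits and left-out libraries; HEY1 was lost with shrunken DESeq2, without ESC replicate 1 and without NEC replicate 1. The adjusted p alone gave 8 members higher and 1 lower, and 28 genes of the pathway list higher and 9 lower. When a library was left out, genes of that list that rose numbered 13 to 16 (NRARP was lost without ESC replicate 2; DLL4, DLK2 or HES7, the last without ESC replicate 1, were added), and those that fell 1 to 2, the second being HES2, tested only without NEC replicate 2. Numbered replicates did not pair the RNA samples (correlation of their deviations 0.074 over 17564 genes); with the replicate block, 5 members rose and 0 fell, 14 genes of the pathway list rose and 1 fell, and 3698 genes changed in all against 3697 without it. At a score of 15, merged PIRs fell to 20 in ESCs and 70 in NECs with 13 shared. There 3 baits had more in both NEC replicates, a count given without the share of all baits at that score. With 1 replicate alone, ESC PIRs were 45 to 58 and shared PIRs 24 to 28. Gained interactions were 24 without the score limit and 5 with a tolerance of 10 kb. Levels kept their order in ESCs with the longest transcript, and in NECs their rank correlation with the main order was 0.806. Depth limits HEY1, DLL3 and the ESC value of DLL1, the lowest of them resting on 16 counts in a library.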
